A study of Rattus norvegicus with 24 samples.

Results

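Endothelial cells line the blood vessels of the heart, and most of them belong to the capillaries that run beside the muscle fibres. They are recognised by receptors for vascular growth factors, by proteins of the junctions between neighbouring cells, by transcription factors of the ETS, SOX and KLF families and, in capillaries, by caveolae and surface proteins that serve transport across the vessel wall. A set of 39 such genes was followed in the left ventricle apex of rats fed rotenone, an inhibitor of respiratory complex I made by plants. The genes were listed by name for their function, with earlier results of these data known. Of the 39, 37 had a transcript cluster, the unit of measurement on the array, annotated with that symbol alone, and the cluster with the highest mean was used for each. Egfl7, a secreted vascular protein, shared its cluster with a microRNA gene and was left out by this rule. Ptprb, a phosphatase of the angiopoietin receptor, was not analysed here.

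All animals were male RccHan Wistar rats, 7 to 8 weeks old. Control rats ate untreated feed for 1, 3 or 14 days and the rotenone rats ate feed with 400 ppm rotenone for 1, 3 or 14 days, which gave 6 groups of 4 rats with an array each. The rotenone rats lost weight and no control group with matched feed intake was described. An effect of rotenone and an effect of any lower feed intake therefore cannot be told apart. Because RNA came from a whole piece of muscle, fewer cells of a type and less RNA per cell cannot be told apart either.

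Levels are log2 of the authors' intensities, and the median of an array lay between 4.94 and 5.19. Within groups the mean correlation of arrays was 0.9864 to 0.9904. Negative control probes had a 95th percentile of 8.44, which served as a background bound. Of the 37 genes, 24 had a mean above it and 13 below it. Some markers that define endothelium were well above it. Means were 12.97 for Pecam1, an adhesion molecule of endothelial junctions, 15.13 for Cdh5, the cadherin of these junctions, and 12.21 for Tek, the angiopoietin receptor. Others were below it, among them the junction protein Cldn5 (8.00), the guidance receptor Robo4 (7.49) and the adhesion molecule Icam2 (6.90). The SOX factors Sox17, Sox18 and Sox7 were also below it (6.41, 7.48 and 7.25). Plvap, the diaphragm protein of fenestrated and venous endothelium, was below the bound with a mean of 5.32. Rotenone rats were compared with the control rats of their own day, and all adjusted p-values are from limma with Benjamini-Hochberg adjustment over 68842 transcript clusters, called at 0.05.

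A total of 23 of the 39 genes had an entry in the RefSeq promoter table of assembly GRCr8, which gives 250 bases before to 50 after the start of each gene. Of these 23 genes, the promoters of the 4 with the smallest p in the average over days are shown, because Clic5 and Cldn5 rose while Heg1 and Cav1 fell. Capitals mark the letters of any motif searched, on either strand. The Clic5 window is at chr9:24310915-24311214 on the minus strand, the Heg1 window at chr11:80600043-80600342 on the minus strand, the Cav1 window at chr4:46606288-46606587 on the plus strand and the Cldn5 window at chr11:95718549-95718848 on the minus strand.
Clic5: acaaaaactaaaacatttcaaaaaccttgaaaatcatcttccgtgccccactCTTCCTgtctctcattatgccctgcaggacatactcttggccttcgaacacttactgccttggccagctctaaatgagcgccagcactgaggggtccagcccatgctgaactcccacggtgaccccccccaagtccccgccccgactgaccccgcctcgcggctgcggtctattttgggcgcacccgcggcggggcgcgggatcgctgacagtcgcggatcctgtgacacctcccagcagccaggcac
Heg1: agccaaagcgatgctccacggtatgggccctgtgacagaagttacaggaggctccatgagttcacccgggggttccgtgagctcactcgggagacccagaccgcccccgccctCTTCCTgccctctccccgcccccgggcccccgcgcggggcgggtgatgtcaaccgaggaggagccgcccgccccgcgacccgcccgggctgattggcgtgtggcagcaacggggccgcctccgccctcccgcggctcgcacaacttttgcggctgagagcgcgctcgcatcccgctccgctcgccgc
Cav1: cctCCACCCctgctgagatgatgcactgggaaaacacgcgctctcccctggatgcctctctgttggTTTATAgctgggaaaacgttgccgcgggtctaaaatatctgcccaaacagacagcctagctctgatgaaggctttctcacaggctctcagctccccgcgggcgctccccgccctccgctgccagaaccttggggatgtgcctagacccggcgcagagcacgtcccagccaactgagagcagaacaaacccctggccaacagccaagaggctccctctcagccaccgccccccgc
Cldn5: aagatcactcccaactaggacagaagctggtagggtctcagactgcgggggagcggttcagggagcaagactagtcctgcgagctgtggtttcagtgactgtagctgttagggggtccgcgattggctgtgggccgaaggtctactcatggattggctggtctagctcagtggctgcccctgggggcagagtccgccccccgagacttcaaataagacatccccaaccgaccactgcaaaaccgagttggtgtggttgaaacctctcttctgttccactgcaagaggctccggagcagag
For ETS factors the motifs searched were AGGAAG and the longer CCGGAAG. For KLF factors the motif was CCACCC. For SOX factors the letters ACAATG were searched, and the related ACAAAG. The GATA motif was AGATAA, and the TATA motif was TATAAA. Each was searched on both strands, and none contains another. The Clic5 and Heg1 windows each held AGGAAG once, read on the opposite strand. The Cav1 window held CCACCC and, on the opposite strand, TATAAA, and the Cldn5 window held none of these letters. AGGAAG was in 14 of the 23 promoters (60.9%) and in 34.5% of all 33469 promoters of the table, and CCACCC was in 13 (56.5%) and in 29.4%. CCGGAAG was in 0 of the 23 and in 8.75% of all. The members' windows had a median GC content of 61.7%, against 51.7% for all promoters, which bears on every share of GC-rich or AT-rich letters. Of the other motifs, TATAAA was in 6 of the 23 (26.1%, against 14.2%), ACAAAG in 5 (21.7%, against 18.8%), and ACAATG and AGATAA in 2 each (8.70%, against 13.2% and 11.6%). A match is a string of letters and not a binding site.

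Clic5 and Cd300lg, both listed with the capillary genes, rose on each of the 3 days, and Heg1, a membrane protein of endothelial junctions, fell at day 14. None of the other 34 measured members was called on a single day. At day 1 that was 2 of 37 genes (5.41%), where 0.49% of all transcript clusters (0.199% higher, 0.291% lower) and 1.11% of the 22093 genes with a row were called. At day 3 it was 2 of 37, where 0.84% of all transcript clusters (0.291% higher, 0.549% lower) and 2.03% of the genes were called. At day 14 it was 3 of 37 (8.11%), where 2.89% of all transcript clusters (1.4% higher, 1.49% lower) and 5.82% of the genes were called. At day 14 the members' share was thus near that of all genes. Of the 24 members above the background bound, 1 was called at day 1 and 1 at day 3 (4.17% each), in both cases Clic5. A fit of only the rows above the bound called 6.34% of all its rows at day 1 and 9.23% at day 3. Among genes above the bound the members' share was thus not larger on these days.

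**Figure D1:**
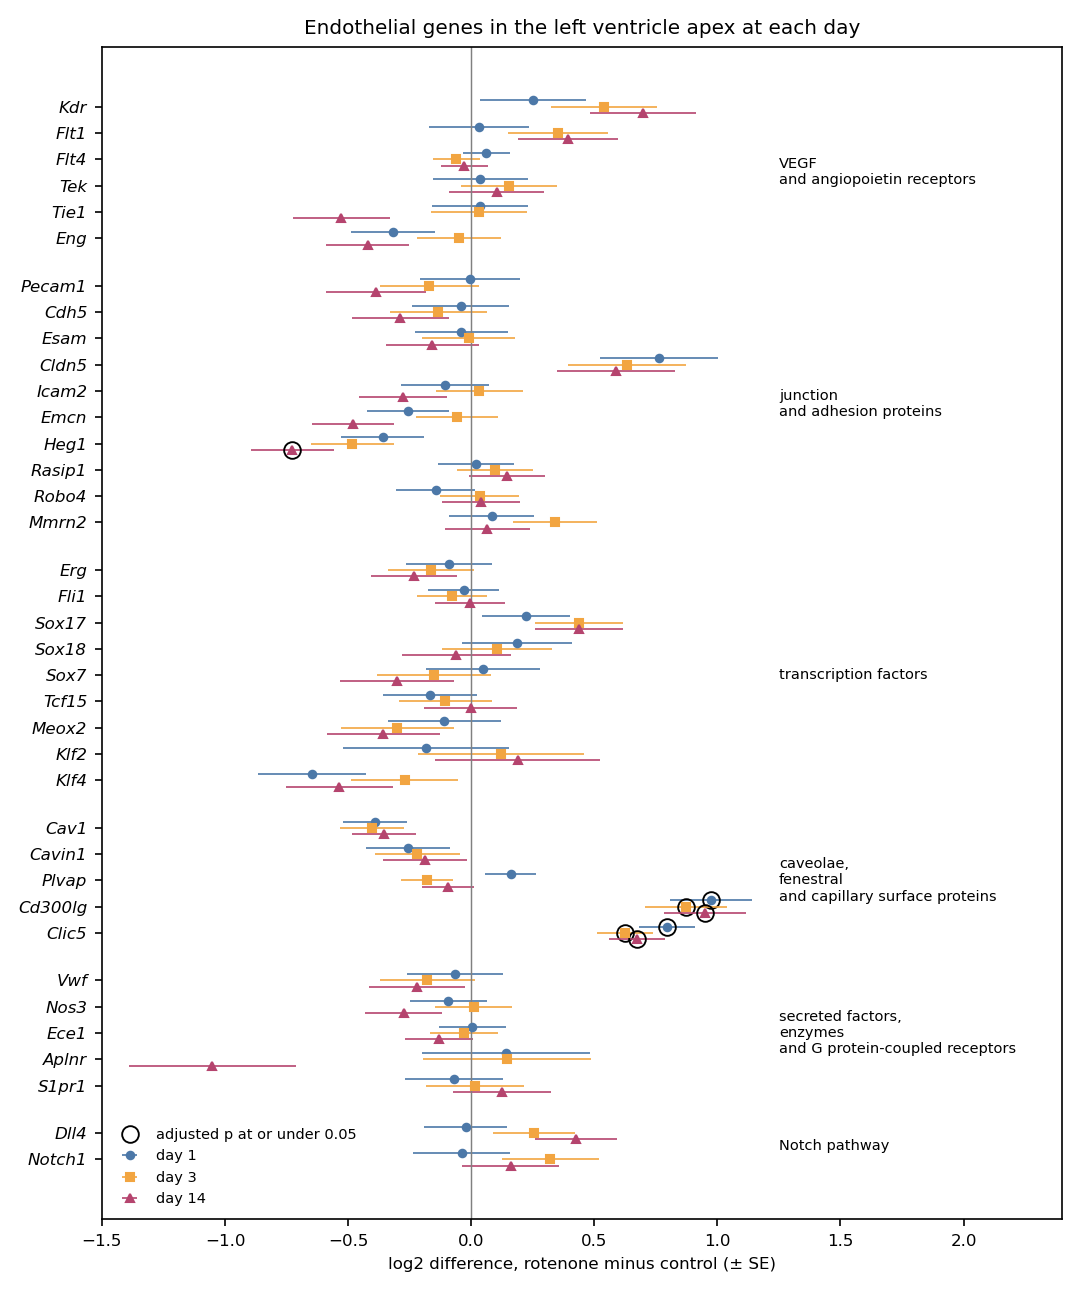
Log2 difference of rotenone minus control (x axis) with its SE for the 37 measured endothelial genes (y axis, by role) at day 1 (circles), day 3 (squares) and day 14 (triangles), 4 rats per group, with calls at adjusted p 0.05 ringed. Clic5 and Cd300lg are ringed on all 3 days and Heg1 at day 14, and most other genes lie near 0.

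Taken over the whole set, the genes were centred near no change. Their median log2 difference was -0.03 at day 1, 0.01 at day 3 and -0.09 at day 14, and for all genes it was 0.01, 0.01 and -0.00. At day 1, 30 of the 37 differed from control by under 0.3 log2 units, at day 3 26 and at day 14 21. When single rats were left out, the day 3 median lay between -0.06 and 0.03, changing sign, and the day 14 median between -0.18 (without rotenone rat 2) and -0.02 (without rotenone rat 1). It also moved by over 1.5 times without control rat 1 (-0.04), 2 (-0.05) or 4 (-0.16) or rotenone rat 3 (-0.06). The day 1 median lay between -0.11 and 0.13, and its highest value came without rotenone rat 4, which had the lowest endothelial levels of its group. In the average of the 3 day effects, 8 of 37 were called (21.6%), 5 higher and 3 lower, beside 5.59% of all transcript clusters (2.52% higher, 3.07% lower) and 11.9% of genes. Among genes above the background bound the share was 4 of 24 members (16.7%) and 27.7% of all. A moderated F-test of differences between the day effects called 0 members, with 0.0145% of all transcript clusters called, and the smallest adjusted p among members was 0.651, for Aplnr, the 1 member with an unadjusted p under 0.05. In the day comparisons, at an unadjusted p under 0.05, 6 members passed at day 1, 7 at day 3 and 13 at day 14, beside 8.29%, 10% and 14.7% of all transcript clusters.

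Clic5 encodes a chloride intracellular channel protein that is abundant in heart, where it is known from capillary endothelium and, in rats, also from mitochondria of the muscle cells. At day 1, Clic5 was at 14.26, 14.36, 14.61 and 14.68 in control rats and at 15.06, 15.20, 15.37 and 15.47 in rotenone rats. The control rats of day 3 had Clic5 at 14.55, 14.59, 14.63 and 14.65, and the rotenone rats had it at 15.06, 15.18, 15.28 and 15.40. Control values of Clic5 were 14.96, 14.97, 15.00 and 15.01 at day 14, and rotenone values were 15.48, 15.56, 15.71 and 15.88. The lowest rotenone rat was above the highest control rat on every day. The log2 difference was 0.79 ± 0.11 (SE) at day 1 (adjusted p = 0.00157), 0.62 ± 0.11 at day 3 (adjusted p = 0.00632) and 0.67 ± 0.11 at day 14 (adjusted p = 0.00183). These are 1.73-, 1.54- and 1.59-fold. The calls held in each of the 24 fits that left out 1 rat, with an adjusted p of at most 0.0369. Quantile normalization ended 2 of them, at 0.49 log2 units (adjusted p = 0.323) for day 3 and 0.41 (adjusted p = 0.293) for day 14, and kept the call at day 1 and in the average. In fits of only the 8 arrays of a day all 3 calls were lost (adjusted p = 0.103, 0.0759 and 0.0843), and no day reached 1.8-fold. In control rats Clic5 was also 0.51 ± 0.11 higher at day 14 than at day 1, with no overlap, but the difference did not pass (adjusted p = 0.47).

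Cd300lg encodes a mucin-type receptor known in mice from capillary endothelium. At day 1, Cd300lg was at 6.95, 7.09, 7.14 and 7.42 in control rats and at 7.78, 7.95, 8.34 and 8.44 in rotenone rats. The control rats of day 3 had Cd300lg at 6.99, 7.00, 7.06 and 7.11, and the rotenone rats had it at 7.81, 7.82, 7.97 and 8.06. Control values of Cd300lg were 6.61, 7.07, 7.07 and 7.33 at day 14, and rotenone values were 7.57, 7.88, 8.15 and 8.27. The rotenone and control rats did not overlap on any day. Its log2 difference was 0.98 ± 0.17 at day 1 (adjusted p = 0.00566), 0.87 ± 0.17 at day 3 (adjusted p = 0.00994) and 0.95 ± 0.17 at day 14 (adjusted p = 0.00264). No rat reached the background bound, and the mean of Cd300lg was 7.54, so no fold is given. Leaving out any 1 rat kept each call, with an adjusted p of at most 0.0383. Scaling the arrays to equal medians gave 0.85 at day 3, with an adjusted p of 0.0552. In fits of only 8 arrays the calls at days 1 and 14 were lost (adjusted p = 0.103 and 0.123).

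The other genes of this group are proteins of caveolae, the flask-shaped membrane pits of capillary endothelium. Cav1, the caveolin that builds them, was lower on average by 0.38 ± 0.08 log2 units (adjusted p = 0.00273) and was not called on a single day. At day 1, Cav1 was at 7.70, 7.72, 7.88 and 7.91 in control rats and at 7.07, 7.43, 7.48 and 7.68 in rotenone rats. In controls of day 3 the log2 intensity of Cav1 was 7.70, 7.75, 7.75 and 7.84, and in rotenone rats it was 7.15, 7.21, 7.49 and 7.60. Control values of Cav1 were 7.21, 7.36, 7.50 and 7.68 at day 14, and rotenone values were 6.94, 6.96, 7.21 and 7.23. All 4 rotenone rats lay below all 4 controls at day 1 and at day 3, and at day 14 the groups overlapped. Its mean of 7.48 was below the background bound. Cavin1, which coats caveolae, had a mean of 13.47 and differences of -0.26 ± 0.17, -0.22 ± 0.17 and -0.19 ± 0.17, none of which passed. The 95% interval of the Cavin1 difference at day 14 ran from -0.55 to 0.17. Plvap differed by 0.16, -0.18 and -0.09.

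Of the 10 junction and adhesion genes, Heg1 was called at day 14, and Heg1 and Cldn5 in the average. Heg1 is a transmembrane protein known in mice and zebrafish to hold endothelial junctions together. At day 1, Heg1 was at 13.30, 13.60, 13.73 and 13.82 in control rats and at 12.72, 13.17, 13.49 and 13.62 in rotenone rats. The control rats of day 3 had Heg1 at 13.56, 13.63, 13.63 and 13.66, and the rotenone rats had it at 12.85, 13.02, 13.23 and 13.44. Control values of Heg1 were 13.22, 13.23, 13.45 and 13.52 at day 14, and rotenone values were 12.46, 12.51, 12.60 and 12.95. The groups overlapped at day 1 and were apart at days 3 and 14. Its difference was -0.36 ± 0.17 at day 1, -0.48 ± 0.17 at day 3 (adjusted p = 0.245) and -0.73 ± 0.17 at day 14 (adjusted p = 0.02), a fold of 0.604. The average was -0.52 ± 0.10 (adjusted p = 0.00159). The call at day 14 was lost without control rat 1 (adjusted p = 0.0577), control rat 3 (0.061), rotenone rat 3 (0.0734) or rotenone rat 4 (0.0609) of that day. The average held without any 1 rat.

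Cldn5, the claudin of endothelial tight junctions, moved the other way, with a mean over all rats of 8.00, below the background bound. At day 1, Cldn5 was at 7.64, 7.86, 8.17 and 8.31 in control rats and at 8.18, 8.65, 8.74 and 9.46 in rotenone rats. The control rats of day 3 had Cldn5 at 7.46, 7.48, 7.67 and 7.94, and the rotenone rats had it at 8.10, 8.18, 8.37 and 8.43. Control values of Cldn5 were 6.99, 7.26, 7.31 and 7.93 at day 14, and rotenone values were 7.46, 7.87, 8.09 and 8.43. Only the rats of day 3 did not overlap. Its difference was 0.76 ± 0.24, 0.63 ± 0.24 and 0.59 ± 0.24, with adjusted p-values of 0.25, 0.314 and 0.227, and 0.66 ± 0.14 in the average (adjusted p = 0.0046). In control rats Cldn5 was 0.62 ± 0.24 log2 units lower at day 14 than at day 1 (adjusted p = 0.624). Its mean in rotenone rats of day 14 was 7.96, beside 7.99 in control rats of day 1.

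Pecam1 and Cdh5, the usual surface markers of endothelium, were not called. By day 14, the Pecam1 values were 12.51, 12.91, 13.23 and 13.25 in controls and 12.23, 12.58, 12.67 and 12.87 under rotenone. In controls of day 14 the log2 intensity of Cdh5 was 14.70, 14.93, 15.06 and 15.28, and in rotenone rats it was 14.29, 14.40, 15.03 and 15.11. The groups overlapped for both. The log2 difference of Pecam1 was -0.39 ± 0.20 at day 14, with a 95% interval from -0.81 to 0.03, and that of Cdh5 was -0.29 ± 0.20, from -0.70 to 0.12. At day 1 they were -0.01 ± 0.20 and -0.04 ± 0.20. Without rotenone rat 4 of day 1 they were 0.22 and 0.15. Emcn, the sialomucin of capillary and venous endothelium, was 0.48 ± 0.17 lower at day 14 with no overlap (adjusted p = 0.136). Esam and Icam2, adhesion molecules, Rasip1, a partner of the small GTPase Rap1, Robo4, an endothelial guidance receptor, and Mmrn2, a matrix protein, differed by -0.28 to 0.34 on the 3 days and none passed.

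**Figure D2:**
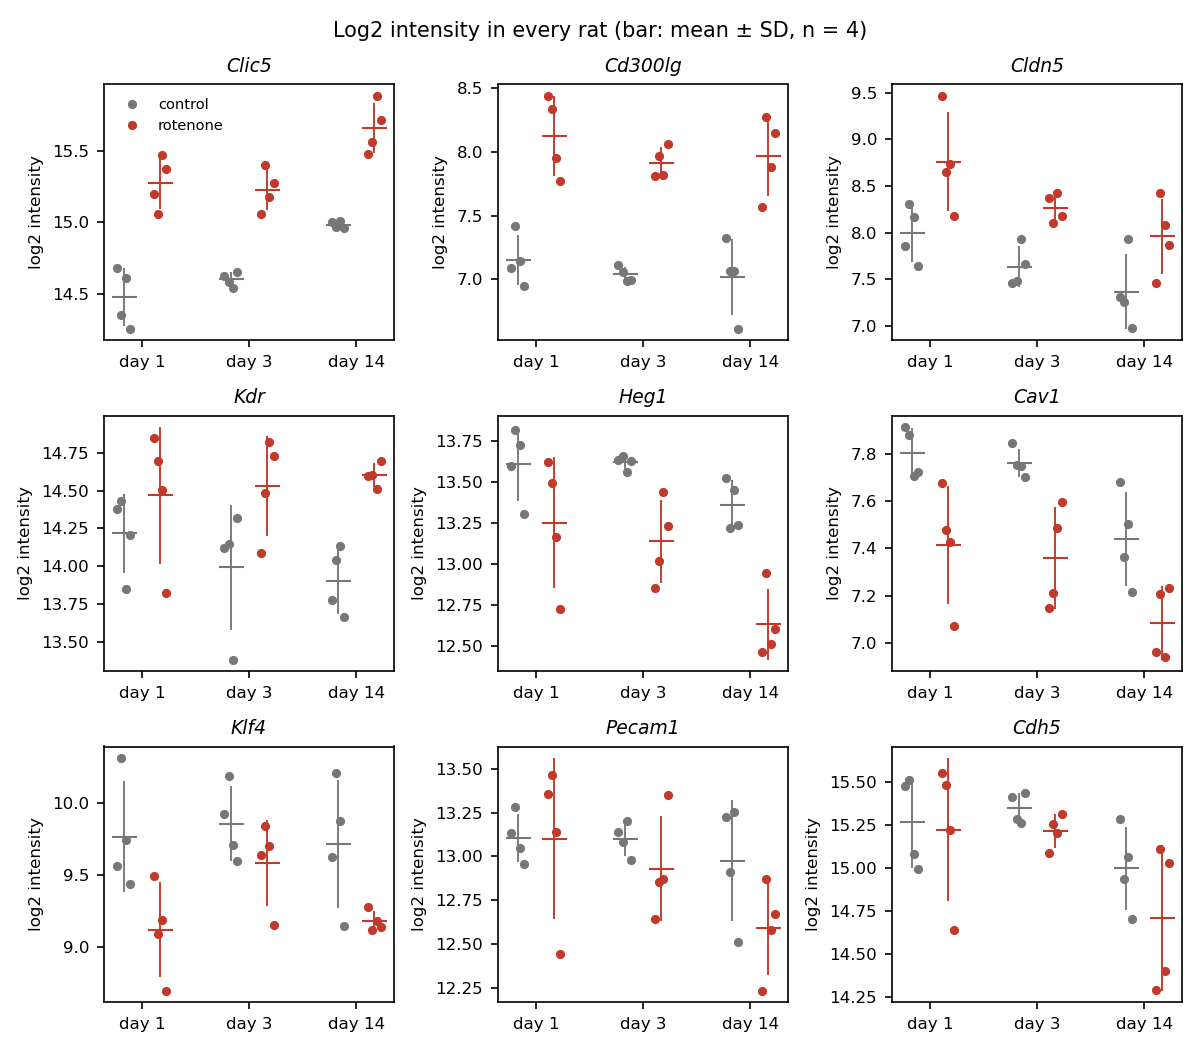
Log2 intensity (y axis, a separate scale per gene) of 9 endothelial genes in each control (grey) and rotenone (red) rat at days 1, 3 and 14, with the mean ± SD of 4 rats. For Clic5 and Cd300lg the red points lie above the grey ones on every day, and for Pecam1 and Cdh5 the groups overlap on every day.

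Among the receptors, Kdr, the main VEGF receptor of endothelium, rose in the average over days by 0.50 ± 0.12 log2 units (adjusted p = 0.0183). Control values of Kdr were 13.85, 14.21, 14.38 and 14.43 at day 1, and rotenone values were 13.82, 14.50, 14.70 and 14.84. The control rats of day 3 had Kdr at 13.38, 14.12, 14.15 and 14.32, and the rotenone rats had it at 14.09, 14.48, 14.73 and 14.82. In controls of day 14 the log2 intensity of Kdr was 13.66, 13.78, 14.04 and 14.13, and in rotenone rats it was 14.51, 14.60, 14.60 and 14.70. At days 1 and 3 the groups overlapped, and at day 14 every rotenone rat was above every control rat. The difference at day 14, 0.70 ± 0.22, missed the threshold (adjusted p = 0.0887). Scaling to equal medians left the average at 0.45 (adjusted p = 0.051). Flt1, the VEGF decoy receptor, had differences of 0.03, 0.35 and 0.39 (each ± 0.20), and its second, dimmer transcript cluster gave -0.14, 0.33 and 0.26. Tek differed by 0.04, 0.15 and 0.10. Tie1, the orphan partner of Tek, differed by 0.04, 0.03 and -0.53 ± 0.20 (adjusted p = 0.172 at day 14). Eng, a co-receptor for BMP ligands, was lower by 0.42 ± 0.17 at day 14 with no overlap (adjusted p = 0.221). Flt4, the receptor of lymphatic growth factors, stayed within 0.06 of control and had a mean below the bound.

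Of 9 transcription factors none was called on a single day, and Sox17 and Klf4 were called in the average. Klf4, a factor induced by blood flow, was lower by 0.48 ± 0.13 log2 units (adjusted p = 0.023). At day 1, Klf4 was at 9.44, 9.56, 9.75 and 10.31 in control rats and at 8.70, 9.09, 9.19 and 9.50 in rotenone rats. In controls of day 3 the log2 intensity of Klf4 was 9.60, 9.71, 9.92 and 10.19, and in rotenone rats it was 9.15, 9.64, 9.70 and 9.84. By day 14, the Klf4 values were 9.15, 9.62, 9.88 and 10.21 in controls and 9.12, 9.14, 9.18 and 9.28 under rotenone. Its groups overlapped on every day. Klf2, its close relative, differed by -0.18, 0.12 and 0.19, each ± 0.34, the widest error of any member but Aplnr. Sox17, an arterial factor, was higher by 0.37 ± 0.10 in the average (adjusted p = 0.0387), with a mean of 6.41 that is below the bound. Control values of Sox17 were 5.98, 6.18, 6.36 and 6.37 at day 3, and rotenone values were 6.53, 6.55, 6.66 and 6.90. On the other days the Sox17 groups overlapped. That call was lost in 10 of the 24 fits that left out 1 rat, with adjusted p-values up to 0.0725 and differences from 0.29 to 0.42. The rats were 2 and 3 of control day 1, 1 and 4 of control day 3, 4 of control day 14, 1 and 2 of rotenone day 1, 1 and 4 of rotenone day 3 and 3 of rotenone day 14. Scaling to equal medians also ended the Sox17 call (0.32, adjusted p = 0.133), as did quantile normalization (0.33, adjusted p = 0.0554). Erg and Fli1, the ETS factors that keep endothelial identity, differed by -0.23 to -0.00, and Sox18, Sox7, Tcf15 and Meox2 by -0.36 to 0.19, none of which passed.

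Of the secreted factors, enzymes and receptors coupled to G proteins, limma called 0 of 5. Aplnr, the apelin receptor, showed the largest difference of any member at day 14. In controls of day 14 the log2 intensity of Aplnr was 11.03, 11.28, 11.48 and 12.28, and in rotenone rats it was 10.16, 10.27, 10.43 and 11.00. The groups did not overlap, and the difference was -1.05 ± 0.34 log2 units, a fold of 0.482, with an adjusted p of 0.106. At days 1 and 3 it was 0.14 and 0.15. Nos3, the endothelial nitric oxide synthase, Vwf, the clotting factor stored in endothelium, Ece1, which processes endothelin, and S1pr1, the receptor for sphingosine phosphate, differed by -0.27 to 0.13. In the Notch pathway, the ligand Dll4 was higher by 0.43 ± 0.17 at day 14 (adjusted p = 0.209). At day 3 Dll4 was higher by 0.26 ± 0.17 (adjusted p = 0.677), and its groups overlapped on neither day. Notch1 was higher by 0.32 ± 0.20 at day 3 (adjusted p = 0.636), also without overlap. At day 14 Notch1 differed by 0.16 ± 0.20 (adjusted p = 0.809). None of these differences passed. In a list of 12 Notch ligands, receptors and targets limma called 0 on each day, and 0, 1 and 2 had an unadjusted p under 0.05.

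Counted by overlap alone, 2 members had all rotenone rats above all controls at day 1, 7 at day 3 and 4 at day 14, beside 4.38%, 6.22% and 4.63% of all genes. These were 5.41%, 18.9% and 10.8% of the members. Members with all rotenone rats below all controls numbered 1, 2 and 4, beside 5.72%, 6.62% and 6.81% of all genes. Every other member overlapped on that day.

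Control rats of day 14 were also compared with those of day 1. This comparison called 0 members and 0% of all transcript clusters, while 7 members and 7.28% of all transcript clusters had an unadjusted p under 0.05. Of the 37 members, 32 were lower at day 14, with a median of -0.19, and the median of all genes was 0.02. The largest differences were those of Cldn5 (-0.62 ± 0.24), Aplnr (-0.54 ± 0.34) and Clic5, which was higher (0.51 ± 0.11). Without control rat 4 of day 14, which had low endothelial levels, the median was -0.06, and without control rat 2 of day 1 it was -0.10. Cav1 and Eng were below day 1 in all rats, and Clic5 above it, where 2.82% of all genes lay wholly below and 3.14% wholly above. These control groups are also those of the rotenone comparisons at days 1 and 14.

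The endothelial genes rose and fell together from rat to rat within a group. After subtracting the mean of its group from each rat, the 276 pairs among the 24 members above the bound had a median correlation of 0.55 over the 24 rats, against 0.07 for pairs among the other 5090 genes above the bound. Of the member pairs 57.6% exceeded 0.5, against 7.50%. All points of a rat come from 1 array and 1 piece of tissue. Rasip1 (r = 0.89) and Cdh5 (r = 0.89) followed the mean of the other members most closely, and Cav1 (r = 0.88), Tek (r = 0.85), Dll4 (r = 0.85) and Heg1 (r = 0.85) came next. Cd300lg followed it too, at 0.81. Clic5 did not, at -0.05, and Plvap was at -0.37. With the mean of 11 cardiomyocyte genes Clic5 correlated at 0.10 and Cd300lg at -0.18, and 5 of these 11 lie near the top of the scale, where differences may be compressed.

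**Figure D3:**
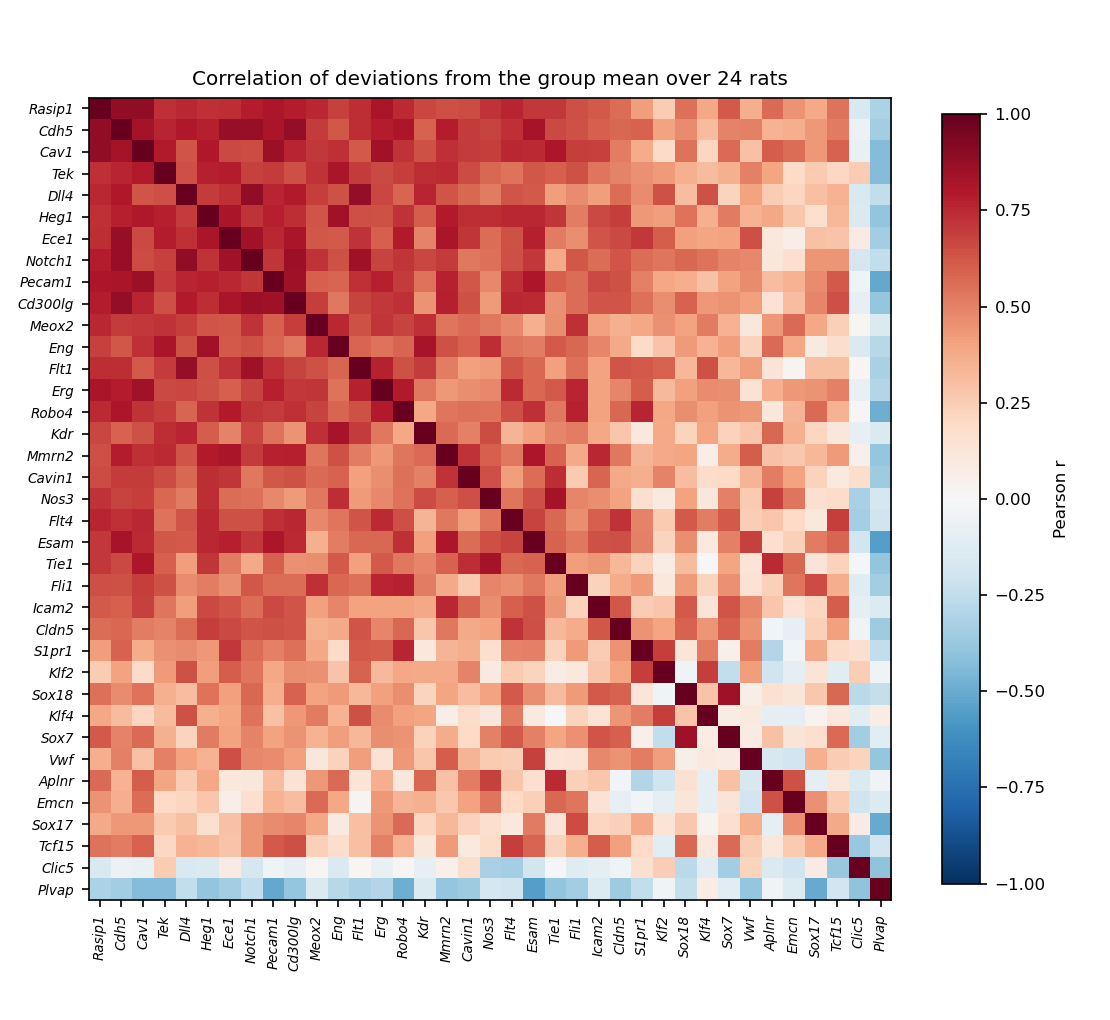
Pearson correlation (colour, from -1 in blue to 1 in red) of each pair of the 37 measured endothelial genes, from each rat's deviation from the mean of its group over 24 rats. Genes are ordered by their correlation with the mean of the other members above the background bound, from Rasip1 to Plvap, and Clic5 and Plvap stand apart at the end.

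Several lists of vascular genes varied with the members, and others did not. The mean deviation of the 24 members correlated at 0.94 with that of 27 further pan-endothelial genes and at 0.91 with that of 3 arterial genes, but at 0.24 with 3 lymphatic and at -0.01 with 3 endocardial genes. It correlated at 0.77 with 5 pericyte genes, at 0.75 with 3 smooth muscle genes, at 0.47 with 9 fibroblast genes and at -0.10 with 11 cardiomyocyte genes. The spread was widest among rotenone rats of day 1, where rat 4 was 0.41 log2 units below its group over the 37 members and rat 1 was 0.29 above. Control rat 4 of day 14 was 0.23 below its group.

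The within-group deviation of the 27 further pan-endothelial genes was also added to the fit as a covariate, a choice made after the data were seen. It leaves every difference as it was and changes only the errors. Variation between rats in these 27 genes is taken out of the errors but stays in the differences between groups. For members that vary with these genes, the adjusted p-values of this fit therefore tend to be too small. The calls it adds are a description only. In that fit 3 members were called at day 1, 4 at day 3 and 6 at day 14, with 0.567%, 1.03% and 3.16% of all transcript clusters. Cav1 was lower on each day, with adjusted p-values of 0.0143, 0.00754 and 0.0107. Heg1 was lower at day 3 (adjusted p = 0.0179) and at day 14 (0.000371). At day 14 Kdr was higher (adjusted p = 0.0213) and Tie1 lower (0.0403), and Pecam1 remained uncalled at 0.0555. In the average Eng was added, lower by 0.26 ± 0.07 (adjusted p = 0.0258), which made 9 members, beside 5.89% of all transcript clusters.

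The ligands and other vascular genes around these members were followed in lists. Their counts stand beside 1.11%, 2.03% and 5.82% of all genes with a row called on days 1, 3 and 14. Of 19 ligands and co-receptors of the VEGF, angiopoietin, apelin and BMP pathways, 0 were called by limma at days 1 and 3, where 5 and 4 had an unadjusted p under 0.05. At day 14, 2 were higher and 3 lower. Angpt1, the ligand that activates Tek, was lower by 1.00 ± 0.22 log2 units (adjusted p = 0.0134). Angpt2, its antagonist in many settings, was higher by 0.68 ± 0.17 (adjusted p = 0.0277). Nrp2, a co-receptor of VEGF and semaphorins, was lower by 1.04 ± 0.21 (adjusted p = 0.00909). Apln, a ligand of Aplnr, was lower by 0.74 ± 0.17 (adjusted p = 0.0176) and Vegfd, a ligand of Flt4 and in humans also of KDR, higher by 0.95 ± 0.23 (adjusted p = 0.0277). Vegfa, the main ligand of Kdr, differed by -0.05 ± 0.15. Without single rats the calls of Angpt2, Vegfd and Apln at day 14 were lost in 6, 5 and 4 of 8 fits, with adjusted p-values up to 0.107, 0.124 and 0.0778, and all 5 genes were called in the average over days without any 1 rat.

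The 12 genes of capillary fatty acid handling held 3 called genes at day 1, 4 at day 3 and 3 at day 14, all higher. Their median differences were 0.36, 0.39 and 0.26. Gpihbp1, which carries lipoprotein lipase across the capillary wall, was higher by 1.59 ± 0.22 at day 1, 1.57 ± 0.22 at day 3 and 2.02 ± 0.22 at day 14. Cd36, the fatty acid transporter of muscle and endothelium, was higher by 0.57 ± 0.10, 0.60 ± 0.10 and 0.67 ± 0.10. Slc27a1, a fatty acid transport protein, was called at days 3 and 14, and Rbp7, a retinol binding protein of microvessels, at days 1 and 3. The call of Rbp7 at day 3 was lost in 7 of 8 fits that left out 1 rat, with an adjusted p of up to 0.132. Within groups Cd300lg correlated with the mean of 6 genes of this list at 0.65, below its 0.77 with the further pan-endothelial, 0.75 with the pericyte and 0.72 with the arterial genes. For Clic5 the value with these 6 genes was 0.09.

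Of 52 further pan-endothelial genes, 50 were measured. Of them limma called 0 at day 1 (5 at an unadjusted p under 0.05), Ushbp1 alone at day 3 (0.57 ± 0.10 higher, adjusted p = 0.0055) and 4 at day 14. Cd34, a sialomucin that fibroblasts and progenitor cells also carry, was lower by 1.79 ± 0.31 at day 14 (adjusted p = 0.00243), and Cd93, an endothelial lectin receptor, by 1.11 ± 0.20 (adjusted p = 0.00421). Gimap4, a GTPase of lymphocytes and endothelium, was lower by 0.91 ± 0.24 and Ushbp1 higher by 0.40 ± 0.10, and both calls were lost in 6 of 8 fits that left out 1 rat, with adjusted p-values up to 0.123 and 0.111. The median of this list was -0.01, -0.03 and -0.12 on the 3 days. Of 12 genes of sprouting tip cells 4 were called at day 14, where 5.82% of all genes were called. In controls, 8 of these 12 genes were lower at day 14 than at day 1 at an unadjusted p under 0.05, and 0 were called. The 4 genes called under rotenone were Apln and Angpt2 as above, Col4a1 and Col4a2. Col4a1 was lower by 1.10 ± 0.23 and Col4a2 by 0.90 ± 0.22 at day 14. These are basement membrane collagens that mural cells and fibroblasts make as well, and the Col4a2 call was lost in 6 of 8 fits, with an adjusted p of up to 0.0987. Of 10 venous and activated genes limma called 0 on any day, and 1, 2 and 3 had an unadjusted p under 0.05.

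Markers of other cells of the heart moved as follows. Of 11 fibroblast genes 0, 6 and 5 were lower by limma on the 3 days (0 at day 1 also at an unadjusted p under 0.05), with medians of -0.28, -1.02 and -1.12. At an unadjusted p under 0.05, 1 of the 11 was higher at day 3 and 1 at day 14. In controls, 4 of the 11 were lower at day 14 than at day 1 at that unadjusted p, and 0 were called. The day 3 call of Mfap5 was lost in 2 of 8 fits that left out 1 rat. The mean of the fibroblast list lay between 11.42 and 12.01 in control and between 10.34 and 10.64 in rotenone rats at day 14. Of 10 proliferation genes 0, 7 and 4 were lower, with 1 higher at an unadjusted p under 0.05 at day 1. In controls, 9 of these 10 genes were lower at day 14 than at day 1 at an unadjusted p under 0.05, and 0 were called. Of the day 3 calls under rotenone, those of Aurkb and Plk1 were each lost in 7 of 8 fits that left out 1 rat, Ccnb2 in 3 and Bub1 in 1. At day 14 those of Ccnb2 and Ccna2 were lost in 7 and 4. Of 8 red cell precursor genes 0, 3 and 7 were lower, with 0 unadjusted at day 1. The day 3 calls of Ahsp and Epb42 were lost in 8 of 8 such fits, and that of Epb42 at day 14 in 4. Of 11 cardiomyocyte genes limma called 0 on any day, with medians of -0.02, 0.01 and -0.00 and with 0, 1 and 1 at an unadjusted p under 0.05. Of these, 5 had a mean above 19 log2 units, near the top of the scale, where differences may be compressed. Limma also called 0 of 12 leukocyte genes (0, 1 and 3 unadjusted) and 0 of 9 pericyte genes (0, 1 and 1 unadjusted) on any day. Of 7 smooth muscle genes 0, 0 and 1 were called, with 3, 1 and 1 at an unadjusted p under 0.05, all lower. The call was that of Smtn at day 14, lost in 7 of 8 fits that left out 1 rat. The part of these other cells in the differences of the endothelial genes was not tested. The mean of the 37 endothelial genes themselves lay between 9.47 and 9.85 in control rats and between 9.42 and 9.84 in rotenone rats at day 14. That of the 27 further pan-endothelial genes above the bound lay between 11.34 and 11.61 in control and between 11.14 and 11.33 in rotenone rats. Over all 50 measured genes of that list the day 14 groups overlapped, at 9.24 to 9.43 and 9.09 to 9.31. At days 1 and 3 the groups overlapped for the 27 genes. These means were not tested.

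**Figure D4:**
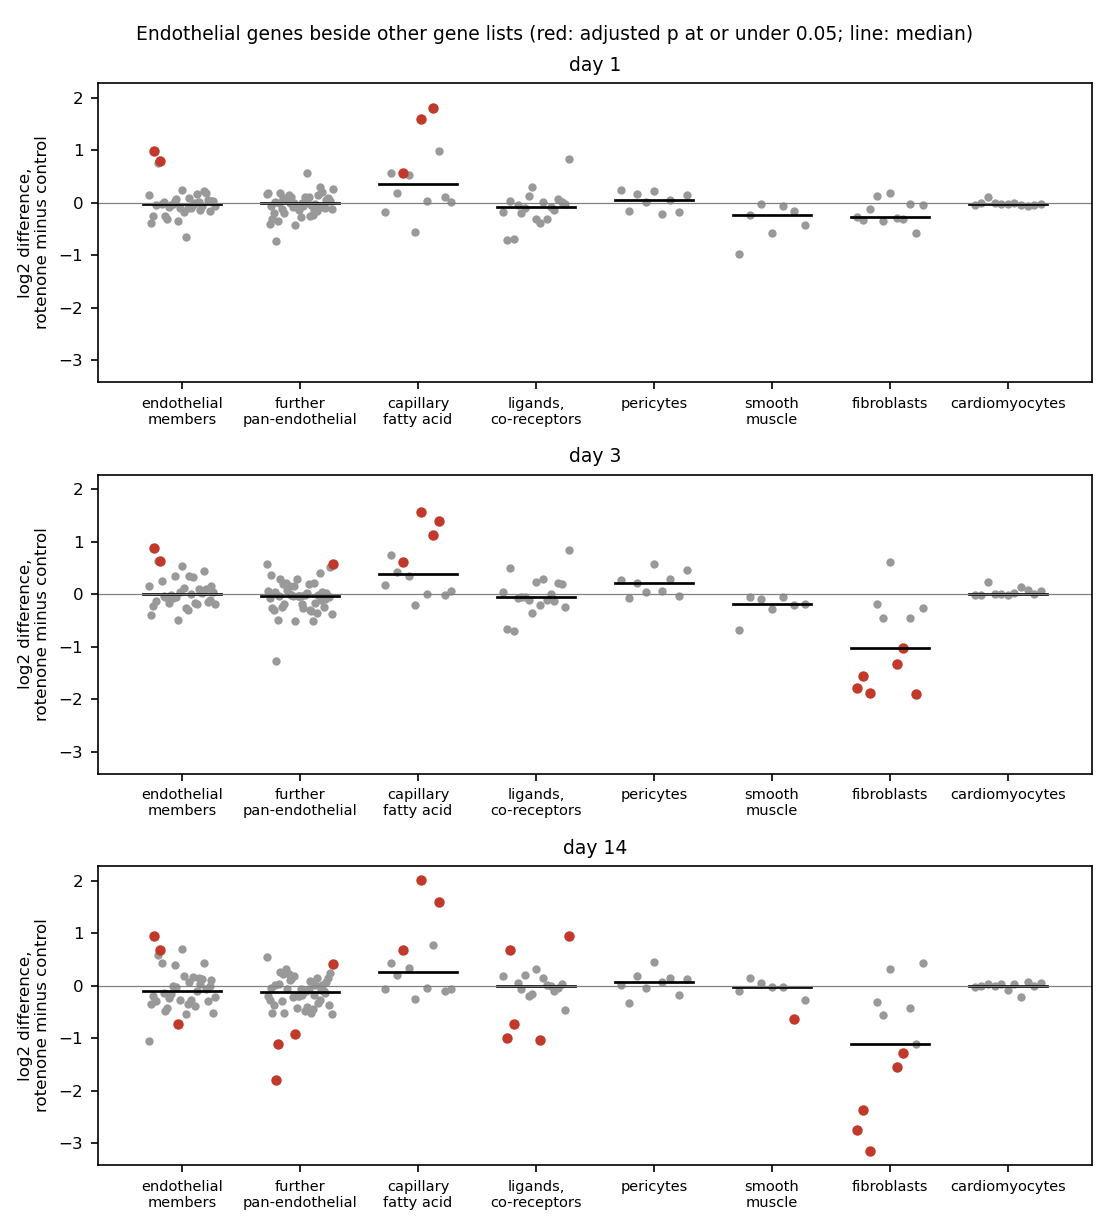
Log2 difference of rotenone minus control (y axis) of each gene of 8 lists (x axis) at day 1, day 3 and day 14, with calls at adjusted p 0.05 in red and the list's median as a line. The medians of the endothelial members are -0.03, 0.01 and -0.09, those of the fibroblast genes -0.28, -1.02 and -1.12, and the cardiomyocyte genes lie near 0.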

How the data were processed

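RNA of left ventricle apex, 1 rat each, was hybridised to Affymetrix Rat Transcriptome Arrays. The deposited intensities are linear and were corrected by the authors for GC content and signal space, then condensed per transcript cluster with RMA. Not given in the sources used here were software versions, genome build and annotation release. Values ran from 0.158 to 999973, so differences near the top may be compressed. The study assigned 5 rats to a group, and 4 arrays per group were analysed here.

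After conversion to log2, without normalization or filter, 68842 of 70580 rows were tested (1738 control probes left out). By the platform annotation 23446 of these had a single symbol, 505 several and 44891 none. From RefSeq genes (GRCr8), 1 symbol was updated. For each gene the row with the highest mean was used.

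Group means over 24 arrays were fitted with limma 3.58.1 in R 4.3.3 (with version 1.17.8 of data.table), with Benjamini-Hochberg adjustment over all transcript clusters, for rotenone against control by day, the average of the days, control day 14 against day 1, and differences between days (F-test). The method was tested on simulated data. The labels give no batch. The number of arrays limits the precision: the median residual SD was 0.268 log2 units, and 0.207 above the background bound.

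The members and lists were chosen with earlier results of these data known, so lists are given as counts and medians. From other lists the called genes and those with the smallest p may be named. Values per rat are given for the 10 members with the smallest p or defining the tissue, and for Aplnr, added after its values were seen. Alternatives were 2 rescalings (equal medians, quantile), 2 filters on intensity, the mean of a gene's rows, robust variances with a trend and weights of arrays. Further ones were a block of rat numbers, single days fitted alone, a 1.8-fold minimum, leaving out each rat and the treatment part of the methods' factorial test. A covariate was added after the data were seen. Figures used matplotlib 3.10.9 in Python 3.11.15.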

Additional observations from a re-analysis of the deposited data

Results flagged for a closer look

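Within groups of 4 rats, a value was singled out where its gap to the nearest other rat exceeded Dixon's critical share of the group's range. This held for 9 of the 222 groups of 37 endothelial genes (4.05%), where chance gives about 1 in 20. Low values were those of Tie1 (10.36) and Robo4 (7.02) in rotenone rat 4 of day 1, of Eng (12.52) and Meox2 (9.69) in control rat 3 of day 3, of Eng (12.64) and Erg (8.94) in control rat 4 of day 14, of Vwf (9.98) in control rat 4 of day 1 and of Aplnr (11.41) in control rat 3 of day 1. The single high value was that of Sox18 (8.58) in rotenone rat 1 of day 1, where the other rats reached 7.45. All are log2 intensities. Within its group, rotenone rat 4 of day 1 also had the lowest mean over all members, and rat 1 the highest. The cause was not tested.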

How the results depend on the processing

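With 4 rats per group and 13 of 37 members below the background bound, small differences were not detectable. The count of called members (2, 2 and 3 on days 1, 3 and 14, 8 in the average) was 1 on each day and in the average with a minimum of 1.8-fold. It was 0, 1 and 0 in fits of only the 8 arrays compared, which have fewer residual degrees of freedom. With only rows above the bound, which leaves out Cd300lg, it was 1, 1 and 5 of 24, beside 6.34%, 9.23% and 24.3% of all such rows, and Kdr passed at day 14 (adjusted p = 0.025). Equal medians and quantile normalization each gave 1 at day 3. The within-group covariate, with adjusted p-values that tend to be too small, gave 4 at day 3 and 6 at day 14. A part of the methods' factorial test was also run, with its treatment term at their threshold of 1e-05, the Kruskal-Wallis test and 1.8-fold. The terms for time and for treatment with time were left out. This partial test called 1 member, Cd300lg, and 305 of all transcript clusters. Leaving out single rats gave 2 to 2, 2 to 2 and 2 to 3 members on the 3 days, 7 to 10 in the average and 0 to 0 for control day 14 against day 1 and for the difference between days. Quantile normalization turned the day 1 differences of Pecam1 (0.10) and Cdh5 (0.10). Changes of sign without single rats were followed only for the 10 members with the smallest p or defining the tissue. Among these, uncalled differences at day 1 that changed sign ranged from -0.13 to 0.22 (Pecam1) and -0.15 to 0.15 (Cdh5). Between the controls such differences ranged from -0.23 to 0.0038 (Cd300lg), -0.22 to 0.14 (Klf4), -0.11 to 0.018 (Sox17) and -0.22 to 0.025 (Pecam1). Same-numbered rats of rotenone and control groups deviated together at r from -0.15 to 0.11, and those of the control groups of days 14 and 1 at r from -0.04 to 0.20, with 3 of 4 over 0.1. No comparison had every pair over 0.1, so the numbers were not taken to pair the rats. With the number as a replicate block the member counts were 2, 2 and 3, and 7 in the average, where Sox17 missed the threshold (adjusted p = 0.0597). The cause of these changes was not tested. Of all transcript clusters, 137 were higher and 200 lower at day 1 (196 and 122 after quantile normalization), and 964 and 1025 at day 14 (316 and 949 with equal medians). Without single rats, the counts over all transcript clusters were 172 to 282 at day 1 (337 with all rats), 301 to 500 at day 3 (578) and 885 to 3225 at day 14 (1989). They moved by over 1.5 times without each rat of day 1 but rotenone rats 1 and 2, without control rats 1, 2 and 3 and rotenone rats 1 and 2 of day 3, and without control rats 3 and 4 and each rotenone rat of day 14, with the highest count without rotenone rat 1. The background shares move with them.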

Other observations

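Some vascular genes outside the members were called only in the average over days, where 5.59% of all transcript clusters were called. Lower were Npr3, a natriuretic peptide receptor of the endocardium (-0.79 ± 0.16 log2 units, adjusted p = 0.00256), Pdpn, a glycoprotein of lymphatic vessels (-0.52 ± 0.09, adjusted p = 0.00132), and the pan-endothelial genes Pdcd10, which belongs to a complex of junction proteins (-0.40 ± 0.09, adjusted p = 0.0079), and Tspan7 (-0.34 ± 0.09, adjusted p = 0.0193). Aqp7, a glycerol channel of capillaries, was higher by 0.58 ± 0.14 (adjusted p = 0.0149). These calls held in each of the 24 fits that left out 1 rat. Efnb2, the arterial ephrin, was higher by 0.47 ± 0.12 (adjusted p = 0.0264), a call lost in 4 of these fits, with an adjusted p of up to 0.0546. Of 10 arterial genes 3 were called in the average, in both directions. Sema3g was higher (0.21 to 0.26 in these fits), a call lost in 12 of them. Fbln5 was lower (-0.46 to -0.36), a call lost in 0. Fbln5 was also the 1 arterial gene called at day 14, with -0.78 to -0.69 in the 8 fits without 1 rat.

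The transcript cluster shared by Egfl7 and Mir126b had a mean of 7.33, below the background bound, and differences of 0.20 ± 0.17, 0.32 ± 0.17 and 0.35 ± 0.17 on days 1, 3 and 14. Its average was 0.29 ± 0.10, with an adjusted p of 0.0996. Signal of the host gene and of the microRNA gene cannot be told apart in it. Robo4 had 3 transcript clusters, with means of 7.49, 7.44 and 7.38, and at day 14 they differed by 0.04, 0.04 and -0.23.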
